A study of Mus musculus with 6 samples.

Results

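Imprinted genes are transcribed mainly from the copy inherited from 1 parent. The 43 described here are mouse genes named from the annotation of imprinted loci and matched by symbol in the deposited table, which held all 43 among 28812 genes. The names were chosen from that annotation with the differences between these 6 libraries already in view. Counts of members past the threshold are therefore a description of a chosen list, and nothing is read from them about imprinted genes as a class. The members fall into 17 clusters on 10 chromosomes: 23 are known for expression from the paternal copy, 19 from the maternal copy, and Gnas has promoters of either kind. The data are total transcript levels and do not separate the parental copies.

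The cells were mouse chondrocytes, the cells of cartilage, of wild-type (wt) genotype and labelled as osteoarthritic (OA). All 6 cultures had received interleukin-1 beta (IL-1β), an inflammatory cytokine. In 3 libraries the cells were given vehicle, and in the other 3 they were given mitochondria, whose source the series title gives as osteocytes. No culture without IL-1β was analysed here, and neither the age of the animals, the time of treatment nor the dose is given in the sources used here. The labels do not say whether replicates came from separate animals or cultures, so p-values measure only the spread between these libraries, which may be technical.

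At an imprinted locus, a stretch of DNA is methylated in the egg or in the sperm and keeps that mark on 1 parental copy in the offspring. The mark silences a promoter directly, or acts on a whole cluster through an insulator or a long noncoding RNA. Many imprinted genes act in fetal growth: several paternally expressed genes promote it and several maternally expressed genes limit it. Imprinting of some members is known from placenta or brain only, among them Cd81, Tssc4, Ube3a and Trappc9. In cartilage, Cdkn1c (p57) is known for its part in the exit of growth plate chondrocytes from the cell cycle, and Igf2 and H19 are abundant in fetal skeletal tissue.

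The promoters of Mest, Plagl1 and Peg3, each known to carry an egg-derived methylation mark, are printed here because these 3 paternally expressed genes were lower with mitochondria. The Dlk1 promoter stands beside them because that paternally expressed gene was higher and its cluster is known to be governed by a distant intergenic element instead. These genes were picked by their direction. Snrpn, also paternally expressed, was higher too and is not printed. Whether the kind of imprint goes with the direction of change was not tested. Each run is the 250 bases before a RefSeq transcription start on GRCm38.p6, 5′ to 3′ on the strand of the gene, with every CG dinucleotide in capitals. The windows lie at chr6:30737800-30738049 (Mest, plus strand), chr10:13090582-13090831 (Plagl1, plus strand), chr7:6730420-6730669 (Peg3, minus strand) and chr12:109452573-109452822 (Dlk1, plus strand).
Mest: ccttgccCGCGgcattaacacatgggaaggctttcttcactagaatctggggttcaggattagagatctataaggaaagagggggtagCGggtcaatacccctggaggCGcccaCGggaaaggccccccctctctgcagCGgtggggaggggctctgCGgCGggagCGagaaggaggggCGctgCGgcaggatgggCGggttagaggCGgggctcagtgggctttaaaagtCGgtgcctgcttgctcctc
Plagl1: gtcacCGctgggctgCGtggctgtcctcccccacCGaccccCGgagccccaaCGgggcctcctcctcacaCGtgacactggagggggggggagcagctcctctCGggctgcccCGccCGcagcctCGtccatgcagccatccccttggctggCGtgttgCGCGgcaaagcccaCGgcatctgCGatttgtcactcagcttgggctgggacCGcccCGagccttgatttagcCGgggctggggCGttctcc
Peg3: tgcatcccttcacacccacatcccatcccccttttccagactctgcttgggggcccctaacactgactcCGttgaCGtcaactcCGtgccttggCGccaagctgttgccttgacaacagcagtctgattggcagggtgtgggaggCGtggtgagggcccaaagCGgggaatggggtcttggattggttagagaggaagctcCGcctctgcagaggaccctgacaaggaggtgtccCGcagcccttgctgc
Dlk1: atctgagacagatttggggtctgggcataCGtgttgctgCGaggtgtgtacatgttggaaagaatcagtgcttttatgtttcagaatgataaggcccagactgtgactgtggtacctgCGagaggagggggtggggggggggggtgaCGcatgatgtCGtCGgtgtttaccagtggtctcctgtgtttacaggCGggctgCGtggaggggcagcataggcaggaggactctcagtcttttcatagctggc

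The Plagl1 window holds 19 CG dinucleotides, the Mest window 14, and the Peg3 and Dlk1 windows 8 each. RefSeq's promoter table gave a window for 35 of the 43 members. Where a gene had several starts, the one with most CG was taken. The median was 12 CG per window among these members and 6 among the 27025 genes of the table treated in the same way. The methylated hexamer bound by ZFP57, a zinc finger protein that protects imprints, has the letters TGCCGC, and it was searched on both strands. It is present 2 times in the Mest window, 1 time in the Plagl1 window, and not in the Peg3 or Dlk1 window. Over the list, 5 of 35 windows (14.3%) hold it, against 9.1% of genes in the table. Peg3 and Usp29 start from opposite strands, and their windows share 163 bases. These are properties of the reference sequence: methylation was not measured.

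Levels are given as FPKM, fragments relative to transcript length and sequencing depth, as the authors computed them. Tests were made on the deposited counts with edgeR's quasi-likelihood test. A gene passed at a Benjamini-Hochberg adjusted p under 0.05 over the 17290 genes tested. Each log2 fold change compares mitochondria with vehicle in the fitted counts and has a standard error (SE), so a value below 0 means a lower level with mitochondria. A log2 ratio of FPKM means is lower than the fitted value by a median 0.069, so a gene near 0 can have opposite signs on the 2 scales. Deposited totals were 63547854 to 66293786 counts per library, about 4 counts to a fragment.

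Of the 43 members, 42 had a count in at least 1 library and 41 were abundant enough to be tested. Magel2 was at 0 in all 6 libraries, which allows a level of up to 0.0309 CPM (counts brought to the same total in each library; 3 fragments, or 12 counts, over all libraries, for counting error only), and Slc22a3 averaged 0.0262 and 0.00293 FPKM. In the vehicle libraries 28 members averaged at least 1 FPKM, 14 of them at least 10 FPKM, and 7 members were under 0.1 FPKM. H19, Igf2, Cd81, Gnas and Grb10 were the most abundant members. The 43 together summed to 1937 to 2471 FPKM with vehicle and 1510 to 1611 FPKM with mitochondria, without overlap. Igf2 and H19 made up 66.2% to 70.7% of that sum with vehicle and 58.1% to 60.8% with mitochondria.

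With mitochondria, 9 members were lower past the threshold (Mest, Plagl1, H19, Cdkn1c, Kcnq1ot1, Meg3, Grb10, Peg3 and Ube3a) and 3 were higher (Cd81, Dlk1 and Snrpn). The other 29 did not pass. Of all genes tested, 14.8% passed, 6.36% higher and 8.46% lower, and 29.27% of the members tested passed. Groups did not overlap for 22 of the 41 members (53.7%) in CPM, against 40.7% of all genes tested. These shares belong to a list chosen with the differences in view. The estimate was below 0 for 28 members and above 0 for 13, with a median of -0.25 against 0.00 over all genes.

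**Figure D1:**
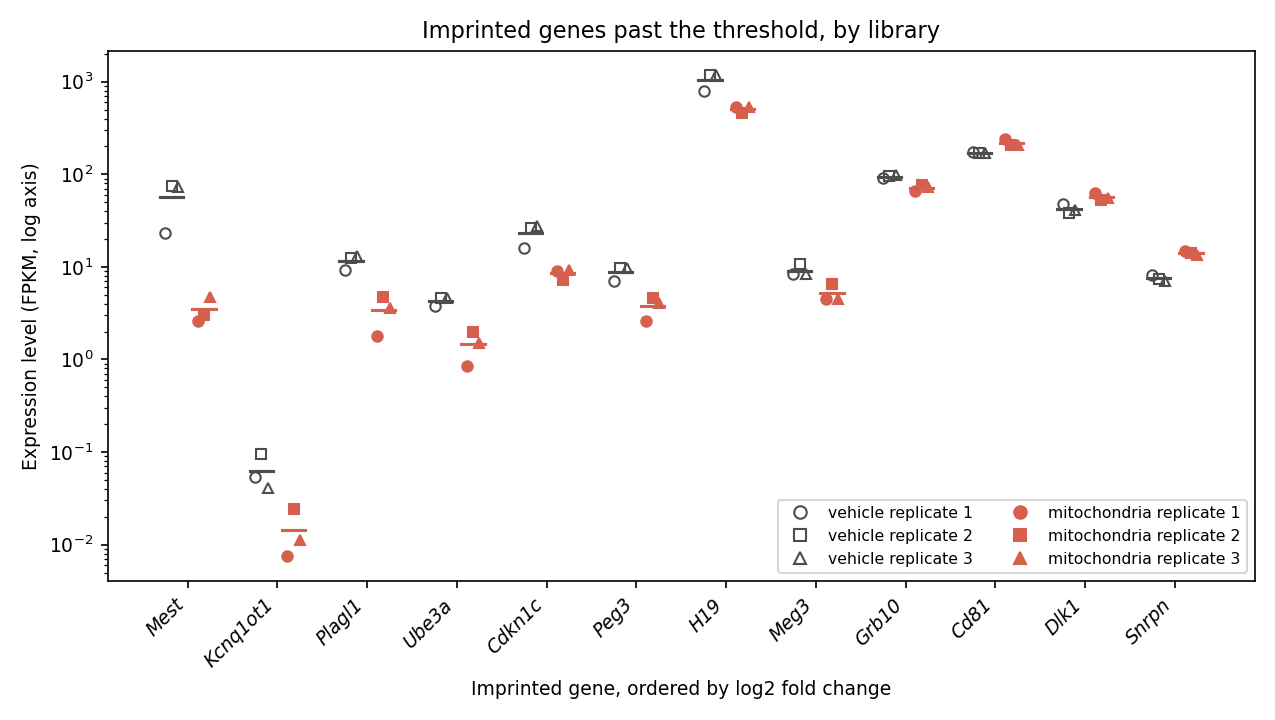
Expression level in FPKM on a log axis for the 12 imprinted genes past the threshold, ordered by log2 fold change. Open grey symbols are vehicle libraries, filled red symbols are mitochondria libraries, shapes mark the replicate and short lines the group mean of 3. The groups do not overlap for any of the 12 genes, and vehicle replicate 1 lies apart from the other vehicle libraries for Mest.

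Mest, a hydrolase-like protein of the endoplasmic reticulum that marks embryonic mesoderm, had the largest change in the list. Its level was 23.0, 74.4 and 73.2 FPKM in the vehicle libraries and 2.60, 3.05 and 4.77 FPKM in the mitochondria libraries. Vehicle replicate 1 was the lowest vehicle library, and it still lay well above every mitochondria library. The fitted log2 fold change was -3.96 (SE 0.446, adjusted p = 0.00378). Among all genes of the whole table lower past the threshold, with no minimum level, Mest ranked 24 by log2 fold change. Among the 353 of them that averaged at least 10 FPKM with vehicle, it ranked 1. That cut was made on the vehicle level, where genes called lower are high, so the rank of 1 is a description only. The gene lies at chr6:30723547-30748462 and overlaps Copg2 on the opposite strand. Copg2 had a log2 fold change of -0.25 (SE 0.128, adjusted p = 0.220).

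Plagl1 (also called Zac1, chr10:13060504-13130982) is a zinc finger transcription factor that restrains the cell cycle and is known to act on other imprinted genes. It measured 9.27, 12.6 and 13 FPKM with vehicle and 1.80, 4.79 and 3.57 FPKM with mitochondria. The groups were separate, and the change was -1.70 on the log2 scale (SE 0.307, adjusted p = 0.0116).

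The Igf2-H19 cluster on distal chromosome 7 (chr7:142575529-142666816) pairs Igf2, a fetal growth factor read from the paternal copy, with H19, a maternally expressed noncoding RNA. The pair is known to share enhancers, which a methylated insulator directs to 1 gene or the other. H19 stood at 799, 1178 and 1186 FPKM with vehicle and at 538, 461 and 535 FPKM with mitochondria. It fell by 0.97 on the log2 scale (SE 0.144, adjusted p = 0.00656). Igf2 stood at 483, 533 and 562 FPKM with vehicle and at 399, 421 and 441 FPKM with mitochondria. The Igf2 groups did not overlap either, but its log2 fold change of -0.25 (SE 0.0781) did not pass (adjusted p = 0.0620). The ratio of H19 to Igf2 in FPKM was 1.99 ± 0.296 (SD, n = 3) with vehicle and 1.22 ± 0.127 (SD, n = 3) with mitochondria. With offsets fitted to the GC content of genes (GC offsets), Igf2 had a log2 fold change of -0.38 and passed (adjusted p = 0.0148). It also passed with a replicate block (log2 fold change -0.25, adjusted p = 0.0413), although nothing in the labels says that the numbers pair the libraries. Of 15 alternatives, Igf2 passed in 4 and did not pass in 11. It passed in 1 of the 6 fits that left out 1 library.

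The neighbouring Kcnq1 cluster (chr7:143052739-143502993) is known to be silenced on the paternal copy by Kcnq1ot1, a long antisense RNA, while Cdkn1c, Phlda2, Slc22a18, Tssc4 and Cd81 are read from the maternal copy. Cdkn1c, the cyclin-dependent kinase inhibitor p57, measured 16.0, 26.5 and 27.4 FPKM with vehicle and 9.14, 7.21 and 9.21 FPKM with mitochondria. All 3 mitochondria libraries were below the lowest vehicle library, and the log2 fold change was -1.38 (SE 0.202, adjusted p = 0.00649). Cd81, a tetraspanin of the cell surface, measured 173, 172 and 170 FPKM with vehicle and 239, 206 and 206 FPKM with mitochondria. It was higher by 0.41 on the log2 scale (SE 0.0866, adjusted p = 0.0193). The members of the cluster known for maternal expression thus included 1 that fell and 1 that rose. For the latter, Cd81, imprinting is known from placenta or brain only.

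Kcnq1ot1 itself, a transcript unit of 93.1 kb, was low per length at 0.0540, 0.0943 and 0.0405 FPKM with vehicle and 0.00745, 0.0245 and 0.0112 FPKM with mitochondria. It passed with a log2 fold change of -2.05 (SE 0.471, adjusted p = 0.0239). Behind these levels stood 357, 628 and 270 deposited counts with vehicle and 51, 161 and 74 with mitochondria. Kcnq1ot1 has a GC content of 40.3%, and its log2 fold change was -1.46 with GC offsets and -2.68 without mitochondria replicate 2. The overlapping Kcnq1 on the opposite strand was nearly silent, with group means of 0.00455 and 0.00397 FPKM. Tssc4, a protein of spliceosome assembly, stood at 16.5, 14.7 and 17.1 FPKM with vehicle and 17.5, 15 and 14.5 FPKM with mitochondria. Slc22a18, a transporter-like membrane protein, stood at 0.731, 1.64 and 1.62 FPKM with vehicle and 1.53, 1.75 and 1.40 FPKM with mitochondria. Both overlapped between groups, with log2 fold changes of 0.03 (SE 0.12, adjusted p = 0.890) for Tssc4 and 0.31 (SE 0.324, adjusted p = 0.571) for Slc22a18. Phlda2, known for limiting placental growth, averaged 0.0712 FPKM with vehicle and 0.103 FPKM with mitochondria.

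The Dlk1-Dio3 cluster (chr12:109452823-110281097) holds 3 protein genes of the paternal copy and 3 noncoding RNAs of the maternal copy. Dlk1, a Delta-like membrane protein that holds back adipocyte differentiation, measured 48.0, 37.8 and 40.9 FPKM with vehicle and 62.5, 53.2 and 56.0 FPKM with mitochondria. It rose by 0.51 on the log2 scale (SE 0.115, adjusted p = 0.0233). Meg3, the first of the maternal noncoding RNAs along the cluster, measured 8.41, 10.7 and 8.28 FPKM with vehicle and 4.48, 6.54 and 4.55 FPKM with mitochondria. Its log2 fold change was -0.74 (SE 0.167, adjusted p = 0.0224), so Dlk1 and Meg3 moved in opposite directions, each without overlap between groups. The ratio of Dlk1 to Meg3 in FPKM went from 3.53 to 5.71 with vehicle to 8.14 to 13.96 with mitochondria.

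Rian, which hosts small nucleolar RNAs, measured 8.77, 9.73 and 8.90 FPKM with vehicle and 5.76, 7.77 and 7.08 FPKM with mitochondria. The groups were separate, yet its log2 fold change of -0.34 (SE 0.116) did not pass (adjusted p = 0.0834). Rian has a GC content of 40.1%, against a median of 50.1% over genes tested, and with GC offsets its estimate was 0.35 (adjusted p = 0.0350), in the opposite direction. No direction is therefore given for Rian. Mirg, the host of a microRNA cluster further along, measured 1.0, 1.09 and 0.944 FPKM with vehicle and 1.17, 0.730 and 0.814 FPKM with mitochondria, with overlap and a log2 fold change of -0.09 (SE 0.201, adjusted p = 0.811). Dio3, the deiodinase that inactivates thyroid hormone, was low and uneven, at a mean of 0.325 FPKM with vehicle and 0.0621 FPKM with mitochondria (log2 fold change -2.25, SE 1.19, adjusted p = 0.234).

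The Peg3 cluster (chr7:6671269-6967219) held Peg3, a large zinc finger protein, beside Usp29 and Zim1. Peg3 measured 7.08, 9.67 and 9.69 FPKM with vehicle and 2.60, 4.57 and 4.11 FPKM with mitochondria. It fell by 1.16 on the log2 scale (SE 0.208, adjusted p = 0.0116). Usp29, a ubiquitin-specific protease-like gene that starts beside Peg3, had group means of 0.0820 and 0.0293 FPKM and a log2 fold change of -1.38 (SE 0.540, adjusted p = 0.12). Zim1, a zinc finger gene of the maternal copy, had group means of 0.707 and 0.348 FPKM and a log2 fold change of -0.95 (SE 0.374, adjusted p = 0.121). For all 3 genes the mitochondria libraries lay below the vehicle libraries without overlap, and Peg3 alone of the 3 passed.

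The Snrpn cluster on chromosome 7 (chr7:59228750-62420139) is the mouse counterpart of the region altered in Prader-Willi and Angelman syndromes. Snrpn, a small nuclear ribonucleoprotein subunit of the paternal copy, measured 8.19, 7.47 and 7.10 FPKM with vehicle and 14.9, 14.2 and 13.3 FPKM with mitochondria. The libraries were tight within each group, and the gene rose by 0.96 on the log2 scale (SE 0.114, adjusted p = 0.00423). Snurf overlaps Snrpn on the same strand and was too low to be tested, at 0.0398 and 0.184 FPKM. How reads of the shared stretch were divided between these genes was not tested. Ube3a, a ubiquitin ligase whose paternal copy is known to be silenced in neurons, measured 3.77, 4.59 and 4.56 FPKM with vehicle and 0.845, 2.0 and 1.52 FPKM with mitochondria. It was lower by a log2 fold change of -1.49 (SE 0.265, adjusted p = 0.0111).

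Ube3a has a GC content of 38.2%, and with GC offsets its log2 fold change was -0.65 (SE 0.103, adjusted p = 0.00377), still past the threshold and closer to 0. The known silencer of Ube3a in neurons is an antisense extension of the Snrpn transcript, annotated here as Snhg14. Snhg14 averaged 0.0874 FPKM with vehicle and 0.0210 FPKM with mitochondria, and it was lower past the threshold (log2 fold change -1.95, SE 0.463, adjusted p = 0.0265). Snhg14 has a GC content of 38.1%, and its fold change with GC offsets is not given here. Ndn (necdin), a growth-restraining MAGE family protein of the same cluster, measured 18.4, 18.5 and 17.8 FPKM with vehicle and 21.1, 17.6 and 20.3 FPKM with mitochondria. Its groups overlapped, with a log2 fold change of 0.18 (SE 0.0978, adjusted p = 0.250). Mkrn3, a RING finger protein that acts on the timing of puberty, was low at 0.326 and 0.172 FPKM.

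**Figure D2:**
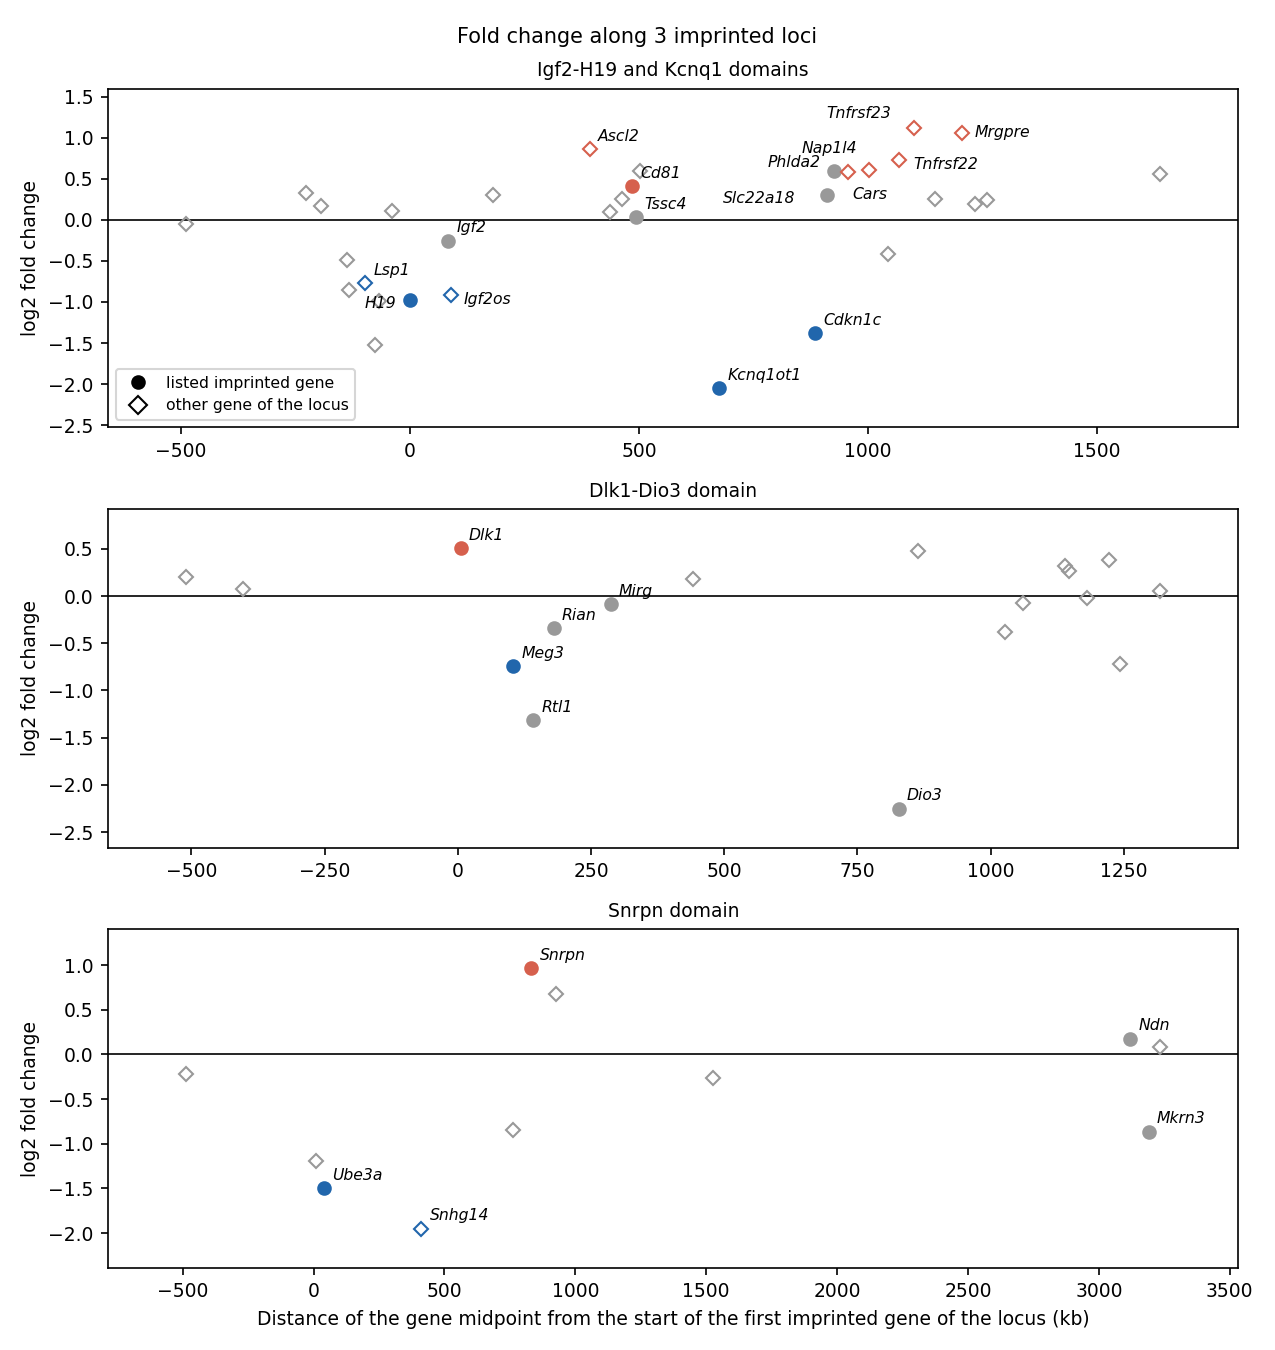
Log2 fold change of tested genes against distance in kb along the Igf2-H19 and Kcnq1 domains (top), the Dlk1-Dio3 domain (middle) and the Snrpn domain (bottom). Filled circles are listed imprinted genes and open diamonds other genes within 500 kb, red for higher and blue for lower past the threshold, grey for not passed. Higher and lower genes stand side by side in each of the 3 loci, for example Dlk1 at 0.51 and Meg3 at -0.74.

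Among the members that act on insulin-like growth factor signals, Grb10 is an adaptor that damps the insulin and IGF1 receptors. It measured 90.2, 95.0 and 97.3 FPKM with vehicle and 66.3, 76.3 and 72.8 FPKM with mitochondria. The change was small and passed at a log2 fold change of -0.32 (SE 0.0812, adjusted p = 0.0329). Igf2r, the receptor that carries IGF2 to lysosomes, measured 59.3, 52.4 and 60.8 FPKM with vehicle and 54.7, 48.6 and 50.6 FPKM with mitochondria. Its groups overlapped, with a log2 fold change of -0.10 (SE 0.0919, adjusted p = 0.528). Airn, the antisense RNA that silences Igf2r on the paternal copy and overlaps it, averaged 0.803 and 0.477 FPKM (log2 fold change -0.68, SE 0.353, adjusted p = 0.225). Ddc, a neighbour of Grb10 that encodes an amino acid decarboxylase, was at 0.218 and 0.167 FPKM.

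In the Sgce-Peg10 cluster (chr6:4674350-5433022) no member passed. Sgce, the membrane glycoprotein epsilon-sarcoglycan, measured 3.93, 4.49 and 4.40 FPKM with vehicle and 3.81, 3.88 and 4.13 FPKM with mitochondria (log2 fold change -0.05, SE 0.0957, adjusted p = 0.776). Peg10, a retrotransposon-derived gene needed for the placenta, measured 2.76, 2.71 and 3.10 FPKM with vehicle and 2.26, 3.19 and 2.95 FPKM with mitochondria (log2 fold change 0.04, SE 0.150, adjusted p = 0.890). These 2 genes are read from a shared region in opposite directions, and both overlapped between groups. Asb4, a ubiquitin ligase subunit, measured 2.52, 2.96 and 3.52 FPKM with vehicle and 1.22, 2.10 and 2.29 FPKM with mitochondria. Its groups were separate, and its log2 fold change of -0.61 (SE 0.240) did not pass (adjusted p = 0.12). Ppp1r9a (neurabin) was low at 0.310 and 0.293 FPKM.

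The remaining clusters hold 1 or 2 listed genes each, and none of them passed. Impact, an inhibitor of the stress kinase GCN2, measured 17.7, 16.0 and 16.1 FPKM with vehicle and 7.75, 12.4 and 11.9 FPKM with mitochondria. Commd1, a regulator of copper handling and NF-kB, measured 4.89, 5.16 and 5.68 FPKM with vehicle and 7.23, 6.06 and 6.28 FPKM with mitochondria. Both genes had separate groups and fell just outside the threshold, with log2 fold changes of -0.57 (SE 0.169, adjusted p = 0.0555) for Impact and 0.38 (SE 0.113, adjusted p = 0.0529) for Commd1. With GC offsets both passed, at -0.38 (adjusted p = 0.0342) for Impact and 0.53 (adjusted p = 0.0213) for Commd1, and DESeq2 called both as well. Of 15 alternatives in all, Impact passed in 7 and Commd1 in 3. Of the 6 fits that left out 1 library, Impact passed in 2 and Commd1 in 0. Just inside it lay Grb10, the member with the highest adjusted p that passed.

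Zrsr1, a splicing factor copy that lies within Commd1 on the opposite strand, measured 2.96, 3.41 and 3.22 FPKM with vehicle and 2.29, 2.42 and 3.04 FPKM with mitochondria (log2 fold change -0.24, SE 0.144, adjusted p = 0.298). Blcap, which holds Nnat in an intron, measured 20.2, 14.4 and 17.0 FPKM with vehicle and 23.1, 20.7 and 18.7 FPKM with mitochondria (log2 fold change 0.34, SE 0.146, adjusted p = 0.149). Both had overlapping groups. Gnas, the stimulatory G protein subunit that relays hormone receptor signals to cAMP, measured 99.3, 102 and 101 FPKM with vehicle and 113, 101 and 101 FPKM with mitochondria. Its log2 fold change was 0.13 (SE 0.0766, adjusted p = 0.302), and this locus sum does not separate the promoters that are imprinted from the one that is not in most tissues.

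Peg13, a noncoding RNA that lies within Trappc9, measured 2.44, 2.22 and 3.14 FPKM with vehicle and 2.38, 2.02 and 1.93 FPKM with mitochondria (log2 fold change -0.23, SE 0.169, adjusted p = 0.391). Trappc9, a subunit of the TRAPP trafficking complex, measured 2.56, 3.14 and 3.19 FPKM with vehicle and 2.91, 2.73 and 2.76 FPKM with mitochondria (log2 fold change -0.01, SE 0.118, adjusted p = 0.964). Neither gene had separate groups. Rasgrf1, a Ras exchange factor of the brain, had 0.0160 FPKM with vehicle and 0.0742 FPKM with mitochondria on average and a log2 fold change of 2.27 that was imprecise (SE 1.13, adjusted p = 0.206). In all, 12 tested members were under 1 FPKM in both groups and did not pass, with group means of 0.0160 to 0.803 FPKM.

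**Figure D3:**
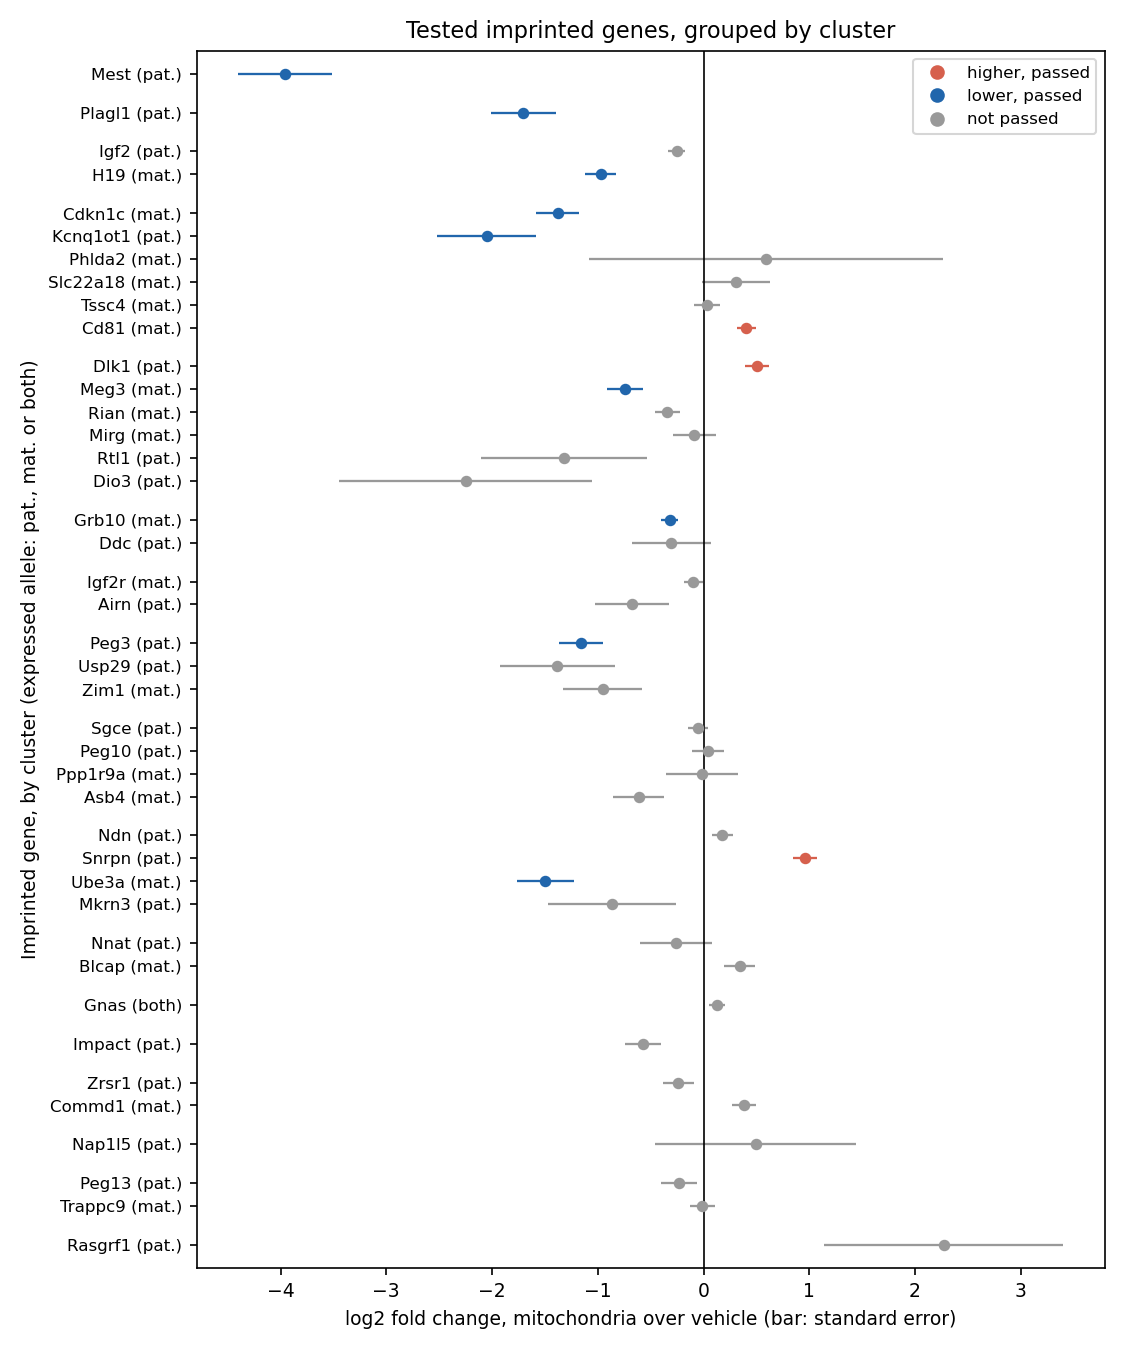
Log2 fold change, mitochondria over vehicle, of the 41 tested imprinted genes with bars of 1 standard error, grouped by cluster and marked by the parental copy known to be expressed. Blue marks the 9 genes lower and red the 3 genes higher past the threshold, and grey the 29 that did not pass. Mest lies farthest below 0, and the widest bar belongs to Phlda2.

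Each parental class held members that rose and members that fell. Of 18 tested members known for maternal expression, 1 was higher (Cd81) and 5 were lower (H19, Cdkn1c, Meg3, Grb10 and Ube3a). Their median log2 fold change was -0.09. For Cd81, Tssc4, Ube3a and Trappc9 such expression is known from placenta or brain only, and the copy used in these cells was not measured. Of 22 tested members known for paternal expression, 2 were higher (Dlk1 and Snrpn) and 4 were lower (Mest, Plagl1, Kcnq1ot1 and Peg3). Their median was -0.28. Over all genes tested, 6.36% were higher and 8.46% lower, with a median of 0.00, and nothing is read from the counts of either class. Within clusters, a gene that rose and a gene that fell were found together in the Kcnq1, Dlk1-Dio3 and Snrpn clusters. The FPKM ratio of Snrpn to Ube3a was 1.79 ± 0.336 (SD, n = 3) with vehicle and 11.1 ± 5.64 (SD, n = 3) with mitochondria. With GC offsets the log2 fold changes of the 2 genes lay closer together, at 1.19 for Snrpn and -0.65 for Ube3a, against 0.96 and -1.49 without them. The ratio of Cd81 to Cdkn1c was 7.85 ± 2.60 (SD, n = 3) with vehicle and 25.7 ± 3.09 (SD, n = 3) with mitochondria.

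Genes beside the listed members were examined within 500 kb of each cluster. Of 357 such genes, 159 were tested, of which 10 were higher and 10 lower past the threshold (12.58%, against 14.8% of all genes). Without vehicle replicate 2, and likewise without vehicle replicate 3, 3 were higher and 1 was lower, and without mitochondria replicate 3 the counts were 6 and 6. In the window of the Kcnq1 cluster, 6 of 16 tested neighbours were higher (37.5%, against 6.36% of all genes tested), and 1 was lower. They were Ascl2, a transcription factor of the trophoblast (log2 fold change 0.86), the decoy receptor genes Tnfrsf22 (0.72) and Tnfrsf23 (1.12), Nap1l4 (0.58), a nucleosome assembly protein, Cars (0.60), the cytosolic cysteinyl-tRNA synthetase, and Mrgpre (1.06), a G protein-coupled receptor. Nap1l4 measured 68.8, 59.4 and 60.2 FPKM with vehicle and 89.8, 88.3 and 91.0 FPKM with mitochondria. Tnfrsf23 measured 33.8, 19.9 and 19.6 FPKM with vehicle and 49.9, 53.6 and 48.5 FPKM with mitochondria. Ascl2, Tnfrsf23 and Nap1l4 are themselves known as imprinted in placenta. Without vehicle replicate 2, and likewise without vehicle replicate 3, 1 of these neighbours was higher. The Kcnq1 window had the highest count of higher neighbours among the 17 clusters and was chosen with the counts in view. The next highest was 2 of 7 tested, in the window of Rasgrf1.

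In the window of the Kcnq1 cluster, the 1 neighbour that fell was Igf2os, transcribed against Igf2. It averaged 0.687 FPKM with vehicle and 0.346 FPKM with mitochondria (log2 fold change -0.92, SE 0.221, adjusted p = 0.0280). Whether the libraries kept strand is not given in the sources used here. Reads of a gene and its antisense partner therefore cannot be told apart where their transcripts overlap. The pairs with overlapping spans include Igf2 and Igf2os, Mest and Copg2, Igf2r and Airn, Blcap and Nnat, and Zrsr1 and Commd1. Others are Kcnq1ot1 and Kcnq1, Cd81 and R74862, Ube3a and 9330162G02Rik, Tssc4 and Trpm5, Gnas and Gnasas1, and Nap1l5 and Herc3.

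Another list of 41 imprinted genes, named from the same annotation, had 36 in the table and 32 tested. Of these 3 were higher and 3 lower (18.75% in all, against 14.8% of all genes). Without vehicle replicate 2 or vehicle replicate 3, 1 was higher and 2 were lower, without vehicle replicate 1 the counts were 3 and 2, and without mitochondria replicate 1 they were 5 and 5. With GC offsets 6 were higher and 3 lower. In the fit with all libraries and no offsets, the higher ones were the Kcnq1 neighbours Tnfrsf23, Ascl2 and Nap1l4. The lower ones were Snhg14, Zdbf2, a zinc finger gene at 0.450 FPKM with vehicle and 0.0755 FPKM with mitochondria (log2 fold change -2.49, SE 0.399, adjusted p = 0.00793), and Jade1, a subunit of a histone acetyltransferase complex (log2 fold change -1.10, SE 0.181, adjusted p = 0.00887).

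Genes that set, keep or erase methylation imprints were described in the same way. Of 25 listed, 23 were tested, 1 was higher and 5 were lower (26.09% in all, against 14.8% of all genes). Dnmt3l, the cofactor of de novo methylation in germ cells, was higher at 2.31 against 1.11 FPKM (log2 fold change 1.12, SE 0.259, adjusted p = 0.0245). It did not pass with no filter on low counts, nor without any 1 of vehicle replicate 2, vehicle replicate 3, mitochondria replicate 2 or mitochondria replicate 3. The lower ones were Tet2 (log2 fold change -1.10), which oxidises methylcytosine, Hells (-1.24), a chromatin remodeller, Zfp445 (-0.78), a zinc finger protein that holds imprints beside ZFP57, and the chromatin proteins Arid4a (-0.77) and Arid4b (-1.55). Dnmt1, which copies methylation at replication, measured 7.45 ± 0.353 FPKM (SD, n = 3) with vehicle and 6.19 ± 0.377 FPKM (SD, n = 3) with mitochondria and did not pass (log2 fold change -0.20). Without mitochondria replicate 1, 8 of these regulators were lower, and 1 was lower without vehicle replicate 2 or 3. The count was 2 without vehicle replicate 1 or without mitochondria replicate 3, and 6 with GC offsets. Hells and Arid4b have GC contents of 39.9% and 41.4%, and their fold changes with GC offsets are not given here.

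Several other measures are given beside these results, and their relation to the members was not tested. Vehicle replicate 1 was the lowest vehicle library for 7 of the 9 members that fell, and mitochondria replicate 1 was the lowest mitochondria library for 7 of the 9. The share over all genes is not given here, so nothing is read from these counts about the members. Along the first principal component of all genes (43% of the variance) vehicle replicate 1 lay at -30.4 and the other vehicle libraries at -56.8 and -56.4, and mitochondria replicate 1 at 81.4 against 27.4 and 34.7. Of 10 proliferation markers 6 were lower (60%, against 8.46% of all genes tested). Their summed levels were 61.7 to 67.0 FPKM with vehicle and 44.7 to 55.2 FPKM with mitochondria. Much of that sum was Pcna, which averaged 32.2 FPKM with vehicle and 32.9 FPKM with mitochondria and did not pass. Without vehicle replicate 2 or 3, 1 of these markers was lower, and without mitochondria replicate 2, 3 were. The part of proliferation in the fall of Cdkn1c and Plagl1 was not tested.

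The chondrocyte label was checked against 12 markers, all of them detected in every group. Col2a1 averaged 112 FPKM with vehicle and 96.0 FPKM with mitochondria, and the 12 summed to 277 to 321 FPKM with vehicle and 247 to 279 FPKM with mitochondria. Acan and Sox9 were higher, Hapln1 was lower, and the other 9 did not pass. Fibroblast markers were also high: 7 of them summed to 1295 to 1473 FPKM with vehicle and 1171 to 1365 FPKM with mitochondria, and Col1a2, Pdgfra and Thy1 were lower. Macrophage markers summed to 39.9 to 52.1 FPKM with vehicle and 38.5 to 48.3 FPKM with mitochondria. Endothelial markers summed to under 1 FPKM in every library. Markers of adipocytes and preadipocytes summed to 19.4 to 21.9 FPKM with vehicle and 20.0 to 20.9 FPKM with mitochondria. Of these 6, Adipoq was lower, at a mean of 3.66 FPKM with vehicle and 1.82 FPKM with mitochondria (log2 fold change -0.93, SE 0.181, adjusted p = 0.0149), and the other 5 did not pass. The relation of Adipoq to the rise of Dlk1 was not tested. Markers of osteoblasts and osteocytes summed to 4.0 to 4.69 FPKM with vehicle and 2.79 to 3.72 FPKM with mitochondria, and Ibsp was lower. In bulk RNA, fewer cells of a type and less RNA per cell cannot be told apart, and the part of cell composition in the members' differences was not tested.

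**Figure D4:**
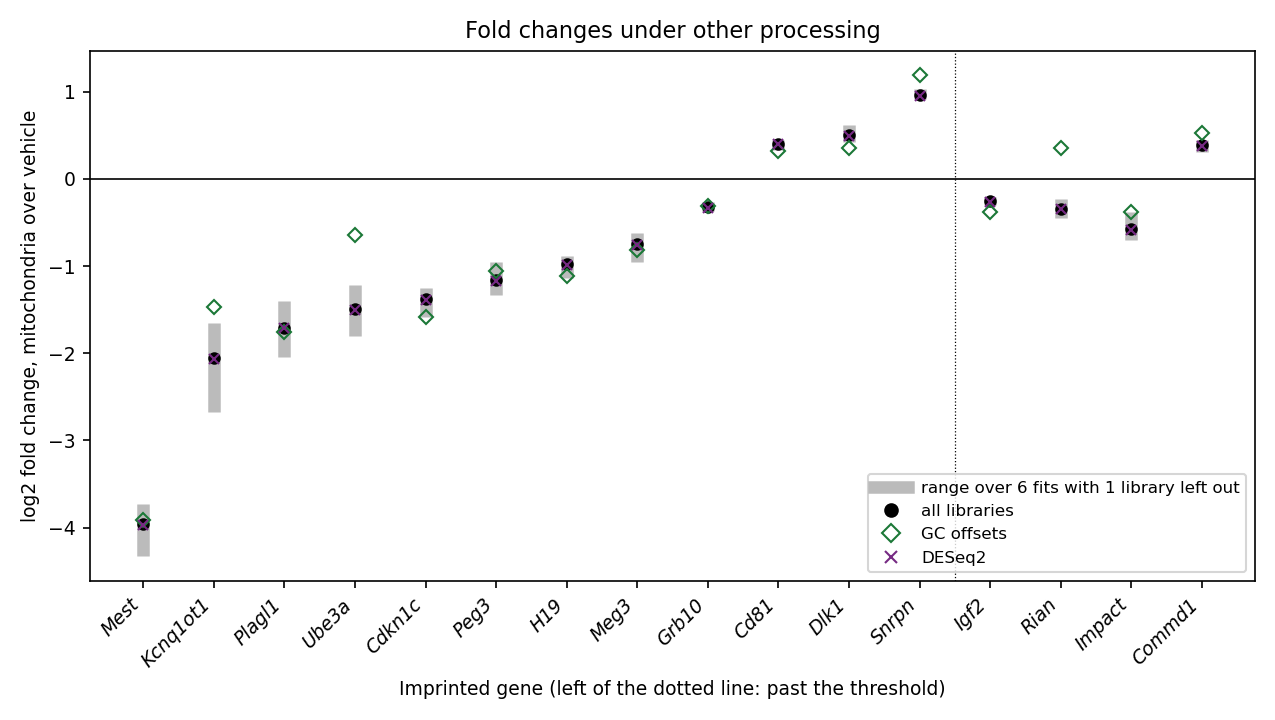
Log2 fold change of the 12 imprinted genes past the threshold and of 4 that did not pass (right of the dotted line), fitted with all libraries (black), with GC offsets (green), with DESeq2 (purple) and over 6 fits that each leave out 1 library (grey bars). Ube3a moves from -1.49 to -0.65 and Rian from -0.34 to 0.35 with GC offsets, while Mest stays between -4.33 and -3.73 over the 6 fits.

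How far the calls rest on single libraries differed among the 12 members. Mest, H19, Cdkn1c and Snrpn passed in each of the 6 fits that left out 1 library. Plagl1, Cd81, Peg3 and Ube3a were not called without vehicle replicate 2 or without vehicle replicate 3. Kcnq1ot1, Dlk1, Meg3 and Grb10 were not called without either of those, nor without mitochondria replicate 3. Each of the 12 kept its direction in every fit. Over all 15 alternatives, Mest (log2 fold change -4.33 to -3.55) and Snrpn (0.82 to 1.19) were the 2 members that passed each time.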

How the data were processed

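Poly(A)-selected RNA of 6 mouse chondrocyte libraries was sequenced as paired ends, per the labels' protocols. The authors deposited 1 table with FPKM, normalised for length and depth, and estimated counts (expected counts) given as whole numbers, per the file headers. HISAT2 2.0, StringTie 1.3.0, Bowtie 0.12.2 and the build mm8 are listed in the submitters' processing notes, with no role for each. The start and end of 25914 of 28732 matched genes (90.2%) equal those of GENCODE M21, so coordinates are given as GRCm38. Low counts pile up at 4, at 2.31 to 2.84 times the mean of the numbers at 3 and 5, so a fragment is taken as about 4 counts.

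The members and lists were chosen with earlier results of these data known. Counts were fitted in R 4.3.3 with edgeR 4.0.16 (TMM, filterByExpr with a minimum count of 10, quasi-likelihood test, two-sided, group as the only term), which kept 17290 genes. Standard errors were derived from each gene's F statistic (the size of the log2 fold change divided by its root) and so carry no information beyond the p. Alternatives were RLE scaling, DESeq2 1.42.0, no filter, counts divided by 4, GC offsets, a replicate block, limma 3.58.1 on log2 of the deposited FPKM plus 1 or 0.1, and leaving out each library. The scripts were tested on simulated counts. Same-number libraries correlated at 0.0371, 0.00907 and -0.0152 once group means were removed, and the other pairs at -0.0314 to 0.0257, so the numbers were not used as pairs. Named with the value of every library are all members past the threshold and all with a mean of at least 1 FPKM in either group. Promoter windows are from RefSeq on GRCm38.p6, matched by symbol. For 8 members no window was used here.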

Additional observations from a re-analysis of the deposited data

How the results depend on the processing

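With all libraries, 1099 genes were higher and 1463 lower, and among the members 3 were higher and 9 lower. Without a filter on low counts these were 357 and 507 genes and 1 and 5 members. With limma on unfiltered log2(FPKM + 1) they were 161 and 301 genes and 1 and 1 members. Both settings without a filter tested more genes, and the cause of the lower counts was not tested. With GC offsets 1734 genes and 6 members were higher, the 3 of the first fit and Ndn, Commd1 and Rian, and 11 members were lower. DESeq2 gave 14 members lower, the 9 and Zim1, Impact, Asb4, Igf2 and Rian. Leaving out 1 library gave 130 to 1086 genes higher, 310 to 1694 genes lower, 1 to 3 members higher and 3 to 12 members lower. The lowest counts came without vehicle replicate 2 or vehicle replicate 3. Without vehicle replicate 1, a fit with the same number of libraries, 970 genes were higher and 1145 lower. The cause of these differences was not tested.

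The replicate block gave 898 genes higher and 1386 lower, and 3 members higher and 10 lower, the added one being Igf2, and it changed no other member's call. Estimates near 0 changed sign: Tssc4 was -0.18 with GC offsets, -0.036 with limma on log2(FPKM + 1) with or without the filter, -0.039 on log2(FPKM + 0.1), and -0.054 to 0.091 with 1 library left out. Peg10 was -0.028 with limma on log2(FPKM + 1) with or without the filter, -0.040 on log2(FPKM + 0.1), and -0.069 to 0.17 with 1 library left out. Mirg ranged from -0.31 to 0.041 and Trappc9 from -0.099 to 0.041 with 1 library left out. With GC offsets Rian was 0.35, Sgce 0.23 and Gnas -0.057. None of these passed except Rian with GC offsets (adjusted p = 0.0350), and for these the cause was not tested. The median of all genes lay at -0.06 with limma on log2(FPKM + 0.1) and nearer to 0 in the other settings. The counts of other imprinted genes, regulators, neighbours and proliferation markers under these settings were added after seeing the data. On the unfiltered log2(FPKM + 1) scale Kcnq1ot1 was -0.07 because the added 1 exceeds its level.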
